A study of Mus musculus with 84 samples.

Results

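AMPA receptors are the ion channels that carry most fast excitatory transmission between neurons, and 9 of the genes that build them were followed here. The set holds the 4 pore-forming subunits (Gria1 to Gria4), 3 transmembrane AMPA receptor regulatory proteins or TARPs (Cacng2, Cacng3 and Cacng8) and 2 cornichons (Cnih2 and Cnih3). The genes were chosen by name, and each symbol matched 1 gene ID of the 55401 in the count files. RNA had been sequenced from neuronal nuclei, sorted by the nuclear protein NeuN, of the frontal cortex of 129S6/SvEvTac mice aged 12 weeks. The mice had received an injection of vehicle, or of DOI (2,5-dimethoxy-4-iodoamphetamine), a psychedelic agonist of the serotonin 2A receptor, 24 h, 48 h or 7 days before sampling. Each of the 4 groups had 4 mice with 2 RNA libraries per mouse, whose counts were summed, and all 3 DOI groups were set against the same vehicle mice. The labels name no genotype, and they do not give the time between the vehicle injection and sampling. The mouse was the replicate throughout.

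An AMPA receptor is a tetramer of GluA subunits, and its subunit make-up sets how it conducts. Receptors that contain the edited form of GluA2 pass little calcium, while receptors without it pass calcium and are blocked by polyamines from the inside of the cell. TARPs and cornichons are small membrane proteins that join the tetramer, help it to leave the endoplasmic reticulum, hold it at the synapse and slow its closing. Nuclear RNA holds transcripts on their way to the cytoplasm, so the values below are levels of nuclear RNA and not of receptor protein.

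A RefSeq (GRCm38.p6) start site was at hand for 7 of the 9 genes, all but Gria1 and Gria3. For Gria2, Gria4, Cnih2 and Cnih3 that start was also the start of the gene in the count files, whereas for Cacng2, Cacng3 and Cacng8 it lay 748, 1252 and 3359 bases inside the gene as the files define it. The 250 bases before the start are shown for those first 4 genes, because they pair a pore subunit that fell after DOI (Gria2) with one that passed no test (Gria4), and because the cornichons Cnih2 and Cnih3 had log2 fold changes of opposite sign. Each runs 5′ to 3′ on the strand of its gene, and capitals mark a match on either strand to one of the motifs searched.

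Gria2: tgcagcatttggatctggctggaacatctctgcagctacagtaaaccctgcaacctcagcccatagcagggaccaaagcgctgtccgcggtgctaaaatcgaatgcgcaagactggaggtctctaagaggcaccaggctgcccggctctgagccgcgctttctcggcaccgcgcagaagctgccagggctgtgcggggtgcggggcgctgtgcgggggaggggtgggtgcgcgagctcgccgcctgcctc

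Gria4: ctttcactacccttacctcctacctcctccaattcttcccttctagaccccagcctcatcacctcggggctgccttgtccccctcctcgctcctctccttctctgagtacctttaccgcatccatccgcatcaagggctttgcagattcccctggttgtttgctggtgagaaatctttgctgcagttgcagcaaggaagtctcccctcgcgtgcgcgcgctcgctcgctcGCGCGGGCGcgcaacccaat

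Cnih2: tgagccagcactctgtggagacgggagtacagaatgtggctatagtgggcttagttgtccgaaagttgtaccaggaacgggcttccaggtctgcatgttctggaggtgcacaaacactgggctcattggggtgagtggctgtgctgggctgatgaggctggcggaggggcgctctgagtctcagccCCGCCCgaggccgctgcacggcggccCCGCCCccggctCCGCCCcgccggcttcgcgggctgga

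Cnih3: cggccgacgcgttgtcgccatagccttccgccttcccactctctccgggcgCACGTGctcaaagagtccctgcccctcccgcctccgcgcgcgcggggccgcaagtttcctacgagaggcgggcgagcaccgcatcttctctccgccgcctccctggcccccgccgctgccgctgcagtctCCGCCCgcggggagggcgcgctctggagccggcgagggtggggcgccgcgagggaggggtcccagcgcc

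These windows lay at chr3:80802836-80803085 (Gria2, minus strand), chr9:4796235-4796484 (Gria4, minus strand), chr19:5098522-5098771 (Cnih2, minus strand) and chr1:181352378-181352627 (Cnih3, plus strand). The motifs searched were the cAMP response element TGACGTCA and its core TGACG, which lies within it, the AP-1 site TGANTCA, the EGR site GCGNGGGCG, the GC box GGGCGG, the E-box CACGTG and TATAAA. The Gria2 window matched none of them, and the Gria4 window held 1 EGR site that began 20 bases before the start. An EGR site was present in 4.7% of 32817 windows of the same length at RefSeq starts. The Cnih2 window held 3 GC boxes, beginning 64, 38 and 26 bases before the start, and the Cnih3 window held 1 GC box at 69 bases and 1 E-box at 199 bases. A GC box occurred in 32.7% of all windows and an E-box in 6.02%. The cAMP response element (1.55% of all windows), its core (17.7%), the AP-1 site (6.75%) and TATAAA (12.4%) matched none of the 7 windows, those of Cacng2, Cacng3 and Cacng8 included. G and C made up 64.8% of the Gria2 window, 58.8% of the Gria4 window, 65.6% of the Cnih2 window and 76% of the Cnih3 window, against a median of 52.4% over all windows.

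Totals ran from 5834248 to 12354785 counts per mouse, and every vehicle mouse, with at least 9151680 counts, was above every 24 h and 48 h mouse, with at most 8090559. Levels are given as CPM, counts divided by the library size that TMM factors adjust and put on the usual CPM scale, and 3 counts in a mouse correspond to between 0.243 and 0.514 CPM before that scaling. Neuron markers (Rbfox3, Snap25, Syt1 and Map2) summed to 5181 to 5648 CPM in vehicle mice and 3580 to 5542 CPM at 24 h and 48 h. Rbfox3, which encodes NeuN, was higher at these times (log2 fold change 0.81 and 0.82, edgeR adjusted p = 0.0103 and 0.00775). Snap25, with a mean of 4101 CPM in vehicle mice, was lower (-0.58 and -0.62, edgeR adjusted p = 0.0395 and 0.0257). Map2 was higher at 48 h (0.55, edgeR adjusted p = 0.0400) and not called at 24 h (0.41). Syt1 was called at neither time (0.42 and 0.56). The 3 endothelial markers (Cldn5, Flt1 and Pecam1) summed to at most 5.03 CPM. Oligodendrocyte markers summed to 111 to 285 CPM in vehicle mice and 122 to 211 CPM at 24 h and 48 h, with Mbp lower at 24 h (-0.83, edgeR adjusted p = 0.0367). Microglial markers summed to 68.3 to 106 CPM and 39.8 to 82.9 CPM in the same mice, and astrocyte markers to 119 to 157 CPM and 68.6 to 198 CPM, with no gene of either list called. The 2 precursor markers summed to at most 18.5 CPM. Of these, Cspg4 was higher at 24 h and 48 h (1.97 and 2.25, edgeR adjusted p = 0.0367 and 0.0173). Pdgfra had the opposite sign (-0.64 and -0.36) and was called at neither time. The share of counts on CT010467.1, an annotated 18S ribosomal RNA pseudogene, was 0.00694% to 0.0101% in vehicle mice, 0.328% to 1.57% at 24 h and 0.523% to 1.66% at 48 h. At 7 days that share was 0.00834%, 0.633%, 0.00607% and 0.474% in mice 1 to 4. Mitochondrial transcripts took 0.0171% to 0.0701% of counts in vehicle mice, 0.0621% to 0.101% at 24 h and 0.108% to 0.268% at 48 h. The nuclear RNA Malat1 took 2.29% to 3.11%, 2.91% to 6.18% and 2.82% to 7.40%. The part of these shares in the results was not tested. On the first principal component of all tested genes the vehicle mice scored from -94.6 to -69.0 and the 24 h and 48 h mice from 22.0 to 66.2, while the 7-day mice scored -87.5, 52.1, -82.9 and 64.8. Each comparison of DOI mice at 24 h or 48 h with vehicle therefore also compares libraries with a high share of that feature with libraries with a low share, and the drug and the feature cannot be told apart there. For 3 mice (24 h mouse 1, 48 h mouse 2 and 7-day mouse 2) the file header carried mouse number 6, while the group in the header was that of the label.

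All 9 genes passed the filter on low counts that left 17941 genes to test. Per kilobase of exon, Gria2 was the most abundant of the 9 in vehicle mice at 338 ± 33.3 CPM per kb (SD, n = 4). Gria3 followed at 61.0 ± 4.22, Cacng3 at 53.0 ± 5.07, Gria1 at 40.5 ± 5.82, Gria4 at 35.4 ± 3.38 and Cnih3 at 29.7 ± 2.45 CPM per kb. Cnih2 was at 9.94 ± 1.32, Cacng2 at 4.63 ± 0.873 and Cacng8 at 0.406 ± 0.0383 CPM per kb. The ranges of the vehicle mice overlapped between the neighbours Gria3 and Cacng3, Cacng3 and Gria1, and Gria1 and Gria4, so the order among those was not resolved. All other neighbours in that order had ranges that did not overlap. In each DOI group Gria2 and Gria3 were first and second with no overlap. Cacng8 had the lowest group mean there, but its range overlapped that of Cacng2 in all 3 DOI groups, so the order of these 2 was not resolved after DOI. The exon length of Gria2 in the files, 15548 bases, includes every annotated transcript model, so its level per kb would be higher if set against a single shorter transcript.

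At 24 h, 2 of the 9 genes passed the test against vehicle: Gria2 fell and Cacng8 rose. Over all 17941 genes tested 24.2% passed (13.8% higher and 10.4% lower), so 2 of 9 is close to the background. At 48 h the same 2 genes passed in the same directions, against a background of 30.1% (16.8% higher and 13.3% lower). At 7 days none of the 9 passed edgeR's quasi-likelihood test, against a background of 0% over all genes, with 3 of the 9 (Gria3, Cacng2 and Cacng8) at an unadjusted p under 0.05 beside 16.8% of all genes. At that time DESeq2 called 1 of the 9, Cacng8, beside 4.44% of all genes, and limma voom called 0 of the 9 and 0% of all genes. The values of the vehicle and DOI mice did not overlap for 5 of the 9 genes at 24 h (35.7% of all genes), for 6 of 9 at 48 h (38.1%) and for 0 of 9 at 7 days (5.85%). The median log2 fold change of the 9 was -0.02 at 24 h, -0.06 at 48 h and -0.16 at 7 days, beside 0.03, 0.02 and 0.02 over all genes. In bulk nuclei a lower value can come from fewer nuclei of a type or from less RNA in each, and these cannot be told apart.

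**Figure D1:**
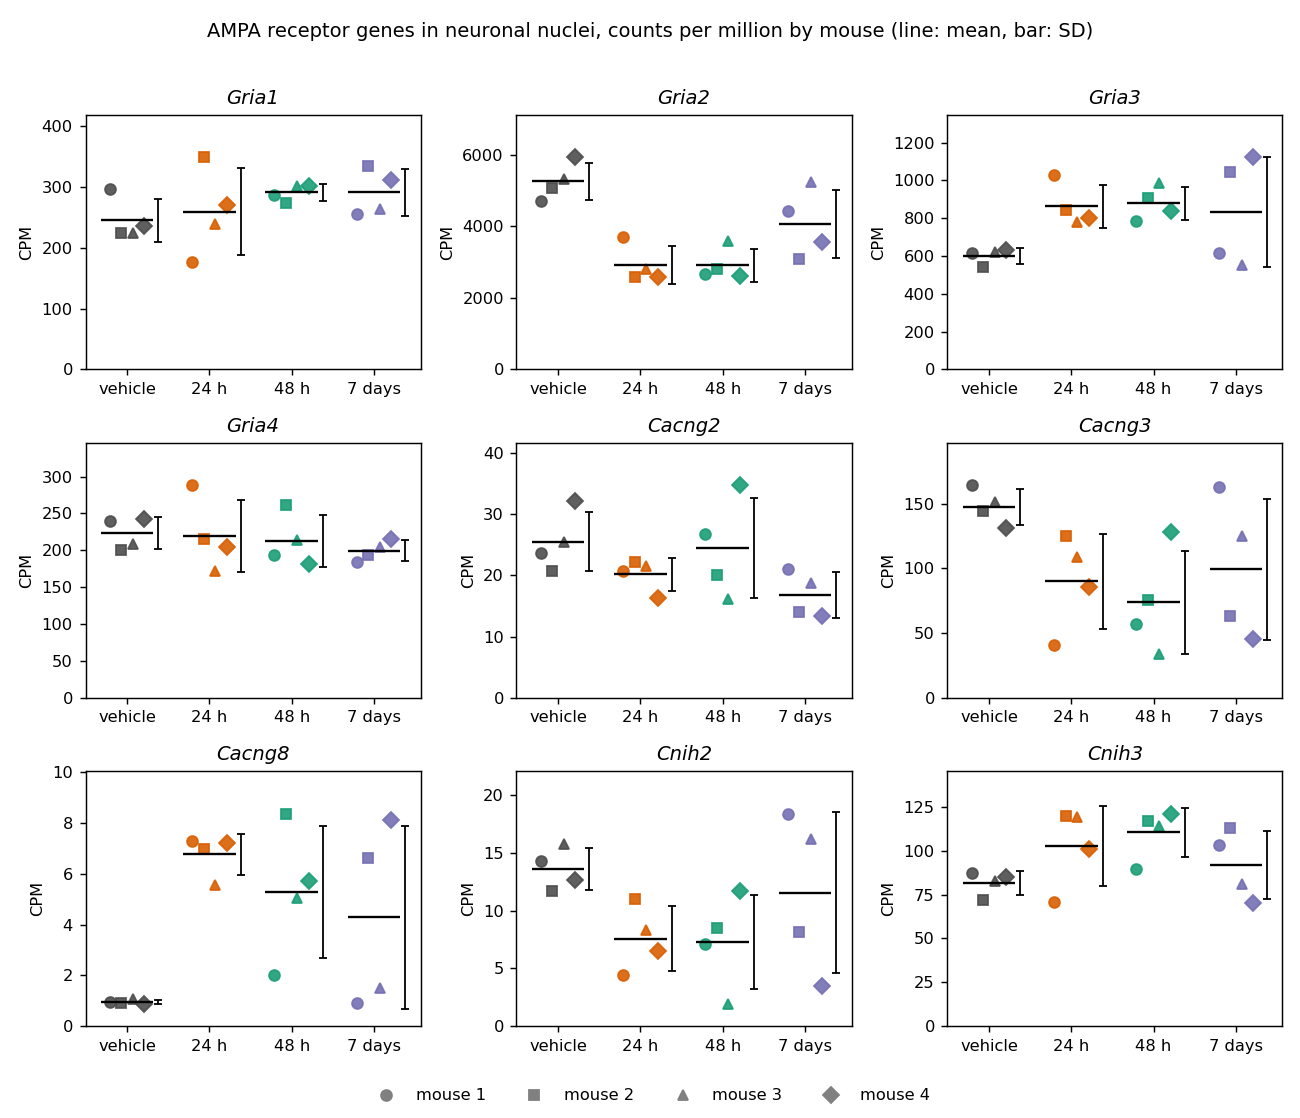
Level in CPM (y axis, linear and starting at 0) of each of the 9 AMPA receptor genes in every mouse, by group (x axis), with the symbol marking the mouse number, the line the group mean and the bar the SD over 4 mice. Gria2 lies between 4709 and 5938 CPM in vehicle mice and between 2572 and 3695 CPM at 24 h and 48 h, and the 7-day mice reach from 3089 to 5242 CPM.

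Gria2 encodes GluA2, the subunit that makes the channel nearly impermeable to calcium. Vehicle mice 1 to 4 had 4709, 5067, 5322 and 5938 CPM. DOI mice had 3695, 2572, 2794 and 2595 CPM at 24 h and 2657, 2794, 3601 and 2604 CPM at 48 h. Every DOI mouse of those times was below the lowest vehicle mouse. Vehicle mice averaged 5259 ± 518 CPM (SD, n = 4), and the mean was 2914 at both times, with an SD of 530 at 24 h and 465 at 48 h. Gria2 was therefore 1.80-fold lower at 24 h (log2 fold change -0.85, SE 0.20, 95% interval -1.27 to -0.44, edgeR adjusted p = 0.00690). At 48 h it was again 1.80-fold lower (SE 0.20, edgeR adjusted p = 0.00553). At 7 days the mice had 4417, 3089, 5242 and 3569 CPM: mouse 3 lay within the vehicle range, the other 3 lay below it, and mice 2 and 4 lay within the range of the 48 h mice. The 7-day difference from vehicle was -0.37 on the log2 scale (95% interval -0.78 to 0.05, edgeR adjusted p = 0.357), and that from 24 h was 0.49 (95% interval 0.07 to 0.90, edgeR adjusted p = 0.275). One test over all 4 groups called Gria2 (edgeR adjusted p = 0.0117) and Cacng8 (edgeR adjusted p = 0.0178), 2 of 9 against a background of 18.8%. Both calls of Gria2 against vehicle were lost when the log2 share of CT010467.1 was added as a covariate: the log2 difference of Gria2 was then -0.23 at 24 h and -0.18 at 48 h, with adjusted p values of 0.968 and 0.996 in edgeR. That share was low in all vehicle mice, high in all 24 h and 48 h mice and of both kinds among the 7-day mice. As a covariate it left no gene of the whole table called at either time, and this fit cannot separate the drug from the share.

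Gria3 encodes GluA3, which in cortical principal neurons mostly pairs with GluA2. Vehicle mice had 614, 540, 622 and 630 CPM. DOI mice had 1027, 843, 781 and 802 CPM at 24 h and 788, 907, 987 and 836 CPM at 48 h, each above the highest vehicle mouse. The log2 fold change was 0.52 at 24 h (1.44-fold, SE 0.21, edgeR adjusted p = 0.0725) and 0.55 at 48 h (1.46-fold, SE 0.21, edgeR adjusted p = 0.0531). Gria3 thus passed the threshold at neither time in the chosen fit, although groups did not overlap. DESeq2, limma voom, scaling by total counts and a fit of only the groups compared put it past the threshold at both times, with adjusted p values down to 0.00326. With the share of CT010467.1 as a covariate its sign turned, to -0.21 at 24 h and -0.23 at 48 h. At 7 days the mice had 617, 1046, 554 and 1124 CPM, so that mice 1 and 3 lay within the vehicle range and mice 2 and 4 above every 48 h mouse (log2 fold change 0.47, edgeR adjusted p = 0.258).

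Gria1 encodes GluA1, the subunit inserted into synapses during long-term potentiation. It had 297, 224, 224 and 235 CPM in vehicle mice, 177, 349, 239 and 271 CPM at 24 h, 287, 273, 301 and 302 CPM at 48 h and 255, 334, 263 and 312 CPM at 7 days. The groups overlapped at all times, and the log2 fold change was 0.08 (95% interval -0.31 to 0.47), 0.25 (-0.15 to 0.64) and 0.25 (-0.15 to 0.64) at 24 h, 48 h and 7 days. The adjusted p values from edgeR were 0.777, 0.326 and 0.529. At 24 h the sign of Gria1 turned with the covariate (-0.41) and without mouse 2 of that group (-0.10).

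Gria4 encodes GluA4, which in cortex is best known from fast-spiking interneurons. It had 240, 201, 209 and 243 CPM in vehicle mice, 288, 215, 172 and 205 CPM at 24 h, 193, 261, 214 and 182 CPM at 48 h and 184, 193, 205 and 216 CPM at 7 days. Groups overlapped at every time, with log2 fold changes of -0.02 (95% interval -0.38 to 0.34), -0.07 (-0.44 to 0.29) and -0.16 (-0.53 to 0.20). These intervals leave out any 1.80-fold change such as that of Gria2. The lowest of the 3 adjusted p values in edgeR was 0.659, at 7 days. The sign at 24 h and 48 h turned under total-count scaling, to 0.08 and 0.03.

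Within the length-scaled sum of the 4 pore subunits, the share of Gria2 was 66.9%, 72.5%, 72.0% and 73.0% in vehicle mice. It was 57.0%, 48.3%, 55.1% and 51.2% at 24 h and 52.0%, 50.1%, 55.7% and 50.6% at 48 h, so no DOI mouse of those times reached the lowest vehicle mouse. The share of Gria3 was 12.9% ± 0.789 (SD, n = 4) in vehicle mice, 24.8% ± 0.332 at 24 h and 24.9% ± 0.830 at 48 h. Gria1 made up 8.58% ± 1.56 in vehicle mice and 12.5% ± 4.10 at 24 h, and Gria4 7.47% ± 0.661 and 9.83% ± 1.06. At 7 days the Gria2 share was 68.0%, 50.9%, 71.9% and 53.5% in mice 1 to 4, and the Gria3 share 15.0%, 27.2%, 12.0% and 26.5%. The Gria2 share of mice 1 and 3 thus lay within the vehicle range and that of mice 2 and 4 within the range of the 24 h and 48 h mice, and the share of CT010467.1 was low in the former and high in the latter. The Gria3 share lay outside those ranges in all 4 mice: vehicle mice had 12.2% to 13.8%, and no 24 h or 48 h mouse was above 25.7%. The summed level of the 4 subunits averaged 475 ± 34.0 CPM per kb in the vehicle group and 353 ± 43.4, 358 ± 40.3 and 427 ± 32.6 in the 24 h, 48 h and 7-day groups. Shares were computed from the same values as the tests, and were not tested. Gene counts do not separate the flip and flop exons of these subunits, nor edited from unedited Gria2.

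**Figure D2:**
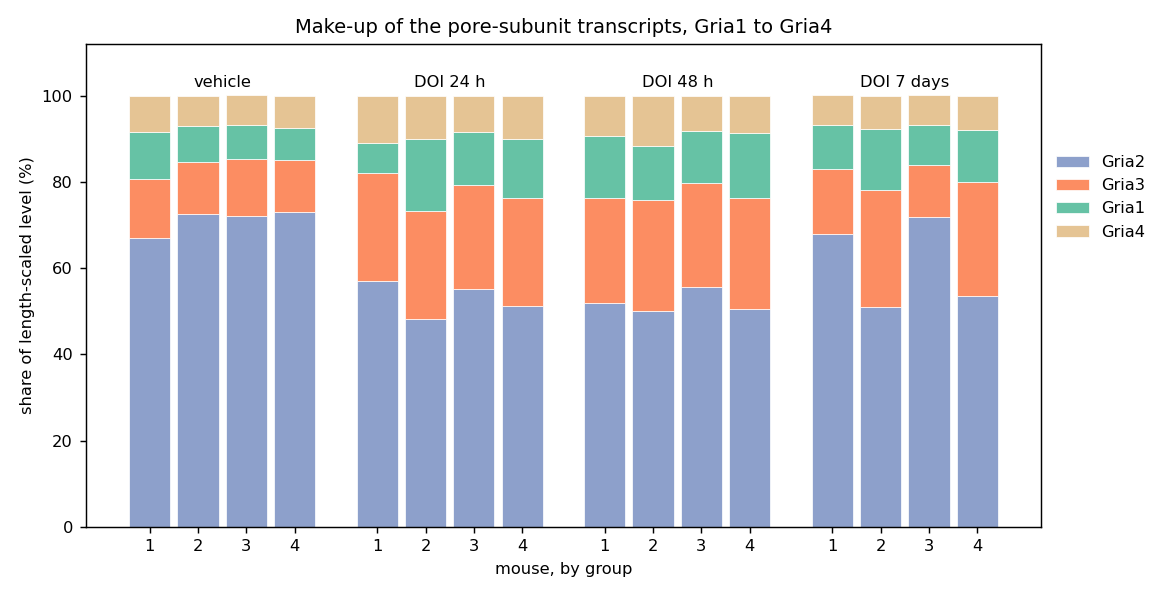
Share (y axis, percent) of Gria2, Gria3, Gria1 and Gria4 in the summed level per kilobase of exon, 1 bar per mouse (x axis), by group. Gria2 makes up 66.9% to 73.0% in vehicle mice and 48.3% to 57.0% at 24 h and 48 h, and the 7-day mice divide into 2 with 68.0% and 71.9% and 2 with 50.9% and 53.5%.

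Among the TARPs, Cacng8 (gamma-8, the TARP most studied in hippocampus) rose, and neither of the others passed in the edgeR fit of all 4 groups. Cacng8 was at the bottom of the measurable range in vehicle mice, with 10, 8, 11 and 9 counts, or 0.944, 0.910, 1.08 and 0.876 CPM. It had 48, 47, 44 and 61 counts at 24 h (7.31, 6.99, 5.58 and 7.22 CPM) and 14, 50, 34 and 43 counts at 48 h (2.03, 8.37, 5.04 and 5.72 CPM). Each of these mice was above each vehicle mouse, with 48 h mouse 1 the closest. The log2 fold change was 2.81 at 24 h (7.01-fold, SE 0.60, 95% interval 1.56 to 4.06, edgeR adjusted p = 0.00449) and 2.45 at 48 h (5.47-fold, SE 0.59, edgeR adjusted p = 0.00686). At 7 days mice 1 and 3 had 11 and 13 counts (0.932 and 1.52 CPM) and mice 2 and 4 had 59 and 58 counts (6.61 and 8.12 CPM). The 7-day fold change of 2.14 on the log2 scale missed the threshold in edgeR (adjusted p = 0.106) and passed it in DESeq2 (adjusted p = 0.0157), with no filter on low counts (adjusted p = 0.0153) and without 7-day mouse 1 (2.49, adjusted p = 0.0117) or mouse 3 (2.43, adjusted p = 0.0232). The call over all 4 groups was lost without any one of the vehicle mice. Of the 2345 exon bases of Cacng8, 91 are shared with the small RNA feature Gm23450, which had 0 counts in all mice. With the share of CT010467.1 as a covariate the log2 difference was 0.74 at 24 h and 0.32 at 48 h, with adjusted p values of 0.968 and 0.996 in edgeR.

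Cacng3 encodes gamma-3, a TARP of cerebral cortex. Vehicle mice had 164, 144, 151 and 131 CPM, 24 h mice 40.5, 125, 109 and 85.2 CPM and 48 h mice 57.1, 75.8, 33.9 and 128 CPM. All 8 were below the lowest vehicle mouse, 48 h mouse 4 by the least, but they spread widely, with a coefficient of variation of 41.0% at 24 h and 54.4% at 48 h against 9.55% in vehicle mice. The log2 fold change was -0.71 at 24 h (SE 0.40, edgeR adjusted p = 0.197) and -1.0 at 48 h (SE 0.40, edgeR adjusted p = 0.0664), which passed at neither time. At 48 h it passed without mouse 4 of that group (-1.42, adjusted p = 0.0208), and with no filter, DESeq2, limma voom or only the groups compared (adjusted p of Cacng3 from 0.00144 to 0.0414). At 24 h it passed with no filter (adjusted p = 0.0365). At 7 days the mice had 163, 63.0, 125 and 45.6 CPM (log2 fold change -0.57, edgeR adjusted p = 0.490).

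Cacng2 encodes gamma-2 or stargazin, the founding TARP, which carries AMPA receptors to the cell surface. It had 23.6, 20.8, 25.5 and 32.1 CPM in vehicle mice, 20.7, 22.2, 21.6 and 16.3 CPM at 24 h, 26.8, 20.1, 16.2 and 34.7 CPM at 48 h and 21.0, 14.1, 18.8 and 13.3 CPM at 7 days. Groups overlapped at every time. The log2 fold change was -0.34 (95% interval -0.86 to 0.18), -0.06 (-0.58 to 0.46) and -0.60 (-1.12 to -0.08), the last with an unadjusted p of 0.0262 and an adjusted p of 0.231 in edgeR. Reads of the antisense transcript A730060N03Rik, which shares 323 exon bases (5.86%) with Cacng2, cannot be told apart from its own there, since no strand setting was recorded. Within the length-scaled TARP sum Cacng3 made up 91.2% ± 2.01 (SD, n = 4) in vehicle mice, 81.1% ± 8.83 at 24 h and 78.0% ± 5.55 at 48 h. The share of Cacng8 was 0.701% ± 0.0593 in vehicle mice, 8.46% ± 4.27 at 24 h and 7.62% ± 4.44 at 48 h. Even after the rise, Cacng8 thus remained the smallest of the 3 shares at 24 h and at 48 h on average.

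The cornichons differed in sign, and neither passed in the edgeR fit of all 4 groups. Cnih2, which slows the closing of AMPA receptors in hippocampal and cortical neurons, had 14.3, 11.7, 15.8 and 12.7 CPM in vehicle mice, 4.42, 11.0, 8.37 and 6.51 CPM at 24 h and 7.10, 8.54, 1.93 and 11.7 CPM at 48 h. No DOI mouse of those times was above the lowest vehicle mouse, though vehicle mouse 2 and 48 h mouse 4 were nearly level. The log2 fold change was -0.84 at 24 h (SE 0.48, edgeR adjusted p = 0.199) and -0.89 at 48 h (SE 0.48, edgeR adjusted p = 0.160). Cnih2 passed at 24 h in a fit of only the groups compared (adjusted p = 0.0367) and at 48 h in limma voom (adjusted p = 0.0251). At 7 days the mice had 18.4, 8.18, 16.2 and 3.50 CPM, both above and below every vehicle mouse (log2 fold change -0.23, edgeR adjusted p = 0.839). For 48 h mouse 3, the lowest of all 16 mice, the 2 libraries of Cnih2 differed by 2.60 on the log2 scale, the most of any gene of the 9 in any mouse, on 13 counts in all.

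Cnih3 had 87.3, 72.0, 82.5 and 84.8 CPM in vehicle mice, 70.7, 120, 119 and 101 CPM at 24 h, 89.7, 117, 114 and 121 CPM at 48 h and 103, 113, 81.0 and 70.4 CPM at 7 days. Only the 48 h mice lay all above the vehicle mice. The log2 fold change was 0.33 at 24 h (SE 0.19, edgeR adjusted p = 0.216), 0.43 at 48 h (SE 0.19, edgeR adjusted p = 0.0927) and 0.17 at 7 days (SE 0.19, edgeR adjusted p = 0.685). Cnih3 passed in limma voom at 24 h (adjusted p = 0.0102). At 48 h it passed with limma voom, total-count scaling, only the groups compared or mouse 1 of the 24 h and 48 h groups left out together (adjusted p from 0.00988 to 0.0461). The share of Cnih2 in the length-scaled cornichon sum averaged 25.1% ± 1.98 (SD, n = 4) in the vehicle group and 12.7% ± 2.04, 11.5% ± 5.69 and 19.2% ± 9.78 in the 24 h, 48 h and 7-day groups. In vehicle mice the shares ran from 23.1% to 27.8%, above all mice of the 24 h and 48 h groups, whose highest was 16.3%.

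**Figure D3:**
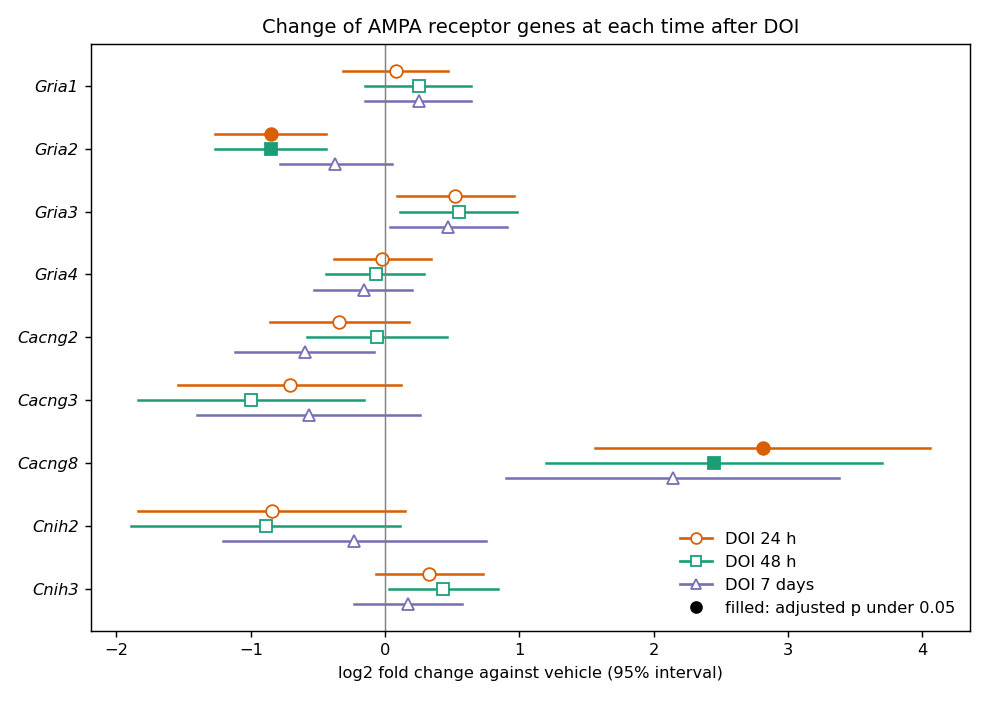
Log2 fold change (x axis) of the 9 genes (y axis) at 24 h, 48 h and 7 days after DOI against vehicle, with bars for the 95% interval from the edgeR fit and filled symbols for an adjusted p under 0.05. The filled symbols are those of Gria2 (-0.85 at both times) and Cacng8 (2.81 and 2.45) at 24 h and 48 h, and no symbol is filled at 7 days.

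Between the DOI times none of the 9 genes passed edgeR's test. Of all genes 0% passed between 24 h and 48 h, 0.00557% between 24 h and 7 days and 0% between 48 h and 7 days, and the members with an unadjusted p under 0.05 numbered 0, 1 and 2, beside 1.88%, 14.2% and 16.5% of all genes. DESeq2 and limma voom also called 0 of the 9 in these comparisons. The largest of these differences, in either direction, were those of Cacng8 at 7 days against 24 h (-0.67, 95% interval -1.81 to 0.47) and of Cnih2 at 7 days against 48 h (0.67, 95% interval -0.34 to 1.67). The coefficient of variation was highest in the 7-day group for Gria2 (23.3%), Gria3 (34.9%), Cacng3 (54.9%), Cacng8 (84.0%) and Cnih2 (60.0%), and in the 24 h or 48 h group for the other 4 genes. For Cacng3 the 48 h group, at 54.4%, was nearly level with it.

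Cacng3 and Cnih2 ordered the mice alike. From lowest to highest, mice 1, 4, 3 and 2 followed each other for both genes at 24 h, mice 3, 1, 2 and 4 at 48 h, and mice 4, 2, 3 and 1 at 7 days, while the orders differed in vehicle mice. Of the 36 pairs that the 9 genes form, this was the only one with the same order in 3 groups, 6 pairs shared the order in 1 group and 29 in none. Over the 16 mice both genes also had a negative r with the first principal component (-0.80 for Cacng3 and -0.77 for Cnih2). At 7 days their order was that of falling scores on this component.

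By Pearson's r of log2 CPM over the 16 mice, among the 6591 genes that averaged 5 or more log2 CPM, the genes most like Gria2 were Ralgapa1 (r = 0.985), Ints6l (0.975) and Ttc19 (0.963). Those most like Gria3 were Hook3 (0.956), Bptf (0.953) and Rbbp6 (0.953). For Gria1 they were Tmed10 (0.870), Sptlc1 (0.846) and Cdh2 (0.83), and for Gria4 Hook1 (0.818), Arid4b (0.810) and Cwf19l2 (0.803). The mice share the split seen on the first principal component, so for Gria2 and Gria3 these values describe that split as well as the genes. Ralgapa1 fell from 507 ± 59.6 CPM (SD, n = 4) in vehicle mice to 274 ± 65.6 at 24 h and 284 ± 37.5 at 48 h, with 384 ± 93.8 at 7 days.

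Of 40 other genes of AMPA receptor handling or of the Cacng and Cnih families, 39 were tested. At 24 h 16 passed (9 higher and 7 lower) and at 48 h 20 (10 higher and 10 lower). That is 41.0% and 51.3% of those tested beside 24.2% and 30.1% of all genes. The lists were chosen with earlier results of these data known, and the difference in share was not tested. At 7 days 0 passed in edgeR, while DESeq2 called 5 of the 39 beside 4.44% of all genes. Without vehicle mouse 1 the count at 24 h was 10. The median log2 fold change of the 39 was 0.05 at 24 h and 0.13 at 48 h. With the share of CT010467.1 as a covariate none passed at either time.

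Of the other Cacng and Cnih genes, only Cacng6 passed, and only at 48 h. Cacng6 had 72, 32, 35 and 37 counts in vehicle mice and 8, 7, 10 and 11 at 48 h. The log2 difference was -1.72 (SE 0.59, edgeR adjusted p = 0.0364). This call was lost when any one of the 8 mice compared was left out, with adjusted p values of 0.0501 to 0.120. Cacng6, Cacng7 and Cacng8 lie next to each other on chromosome 7, between bases 3332955 and 3435667. Cacng7, between which and Cacng6 Cacng8 lies, had log2 fold changes of 0.53 at 24 h and 1.05 at 48 h on 6 to 27 counts per mouse at those times (edgeR adjusted p = 0.463 and 0.122). Cacng4 had 0.77 and 1.36, Cacng5 0.25 and 0.28, Cnih1 0.00 and -0.20 and Cnih4 0.98 and 0.68, and none of these passed. Cacng1, the calcium channel subunit of skeletal muscle, had 0 to 6 counts per mouse and was not tested.

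Among 11 further auxiliary and partner proteins, 3 rose and 3 fell at 24 h, and 4 rose and 3 fell at 48 h. Over all genes 13.8% were higher and 10.4% lower at 24 h, and 16.8% and 13.3% at 48 h. Shisa7, an auxiliary subunit that alters AMPA receptor kinetics, had 20.2, 22.4, 21.1 and 15.5 CPM in vehicle mice and 68.8 to 149 CPM at 24 h and 48 h (log2 fold change 2.53, SE 0.45, and 2.49, SE 0.45, edgeR adjusted p = 0.00262 and 0.00194). Prrt2 rose by 2.41 and 2.85 on the log2 scale from 2 to 10 counts per vehicle mouse, but 92.4% of its exon bases are shared with Gm42742, so its count is uncertain. Its call at 24 h was lost without vehicle mouse 1 or 3 or 24 h mouse 4, with adjusted p values up to 0.0656. Syndig1, which promotes the growth of excitatory synapses, fell by 0.99 at 24 h (SE 0.24, edgeR adjusted p = 0.00853) and by 0.83 at 48 h (SE 0.24, edgeR adjusted p = 0.0160). Of its exon bases 16.5% are shared with C530025M09Rik. The 48 h call was lost without vehicle mouse 1 (adjusted p = 0.0513) or 48 h mouse 2 (adjusted p = 0.0564). Olfm1, a secreted protein found in AMPA receptor complexes, fell by 0.91 and 0.94 (edgeR adjusted p = 0.0120 and 0.00799). Vehicle mice had 756, 758, 691 and 607 CPM of Olfm1, against 309 to 424 CPM at 24 h and 335 to 417 CPM at 48 h.

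Of the 6 genes of assembly in the endoplasmic reticulum, 1 rose and 2 fell at 24 h, and 1 rose and 3 fell at 48 h. Over all genes 24.2% and 30.1% passed at these times. Frrs1l, which binds newly made GluA subunits and is needed for their maturation, had 646, 502, 463 and 537 CPM in vehicle mice, 174, 209, 200 and 182 CPM at 24 h and 254, 175, 269 and 264 CPM at 48 h. It was 2.81-fold and 2.23-fold lower (log2 fold change -1.49, SE 0.24, and -1.16, SE 0.24, edgeR adjusted p = 0.00176 and 0.00287), and the highest DOI mouse of those times, at 269 CPM, was below the lowest vehicle mouse, at 463 CPM. Its partner Cpt1c rose by 0.96 (SE 0.20) and 0.90 (SE 0.20) on the log2 scale, with adjusted p values of 0.00429 and 0.00474 in edgeR. Sacm1l, a phosphatase of that complex, fell by 0.95 and 1.04 (edgeR adjusted p = 0.0295 and 0.0169), but 48.2% of its exon bases are shared with Slc6a20b, and the 24 h call was lost without vehicle mouse 1, 3 or 4 or 24 h mouse 1 or 4.

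Of the 10 trafficking and scaffold genes, 3 rose and 2 fell at 24 h, and 3 rose and 3 fell at 48 h. The shares over all genes were 24.2% and 30.1%. Epb41l1, which binds GluA1 and the actin skeleton, had 72.8, 72.4, 72.4 and 60.0 CPM in vehicle mice and 155 to 220 CPM at 24 h and 48 h (log2 fold change 1.45, SE 0.23, and 1.46, SE 0.23, edgeR adjusted p = 0.00174 and 0.00153). Dlg4, which encodes the postsynaptic scaffold PSD-95, rose by 0.99 (SE 0.28) and 1.15 (SE 0.28), with adjusted p values of 0.0178 and 0.00704 in edgeR. Its 24 h call was lost without vehicle mouse 1 (adjusted p = 0.0561) or 24 h mouse 4 (adjusted p = 0.0540). Pick1, which binds GluA2 and takes it from the surface, fell by 1.05 at 24 h (edgeR adjusted p = 0.0486) and by 1.35 at 48 h (edgeR adjusted p = 0.0145). Of the exon bases of Pick1 18.6% are shared with Gm49486. The 24 h call of Pick1 was lost without any one of the 8 mice compared (adjusted p = 0.0583 to 0.136). Arc, an immediate early gene that removes AMPA receptors from the surface, fell by 2.12 at 48 h (edgeR adjusted p = 0.0270). That value rests on vehicle mouse 3: the vehicle mice had 28.2, 43.2, 290 and 37.2 CPM and the 48 h mice 15.4, 14.1, 20.3 and 41.6 CPM, and without that mouse the fall was -0.66 (edgeR adjusted p = 0.353).

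Of the 3 genes that cluster receptors from outside the cell, Nptx1 (neuronal pentraxin) rose by 1.47 at both times (edgeR adjusted p = 0.00260 and 0.00182), from 100 to 135 CPM in vehicle mice to 242 to 384 CPM at 24 h and 48 h. Adar, 1 of 3 listed genes of the RNA editing enzyme family, rose by 2.36 at 24 h (SE 0.43, edgeR adjusted p = 0.00290). At 48 h it rose by 2.66 (SE 0.44, edgeR adjusted p = 0.00158). Of the exon bases of Adar 16.8% are shared with Chrnb2. Adarb1, the enzyme that edits Gria2 at the site that sets calcium passage, had log2 fold changes of 0.04 (95% interval -0.46 to 0.55) and 0.10 (-0.40 to 0.60) and did not pass (edgeR adjusted p = 0.910 and 0.778).

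**Figure D4:**
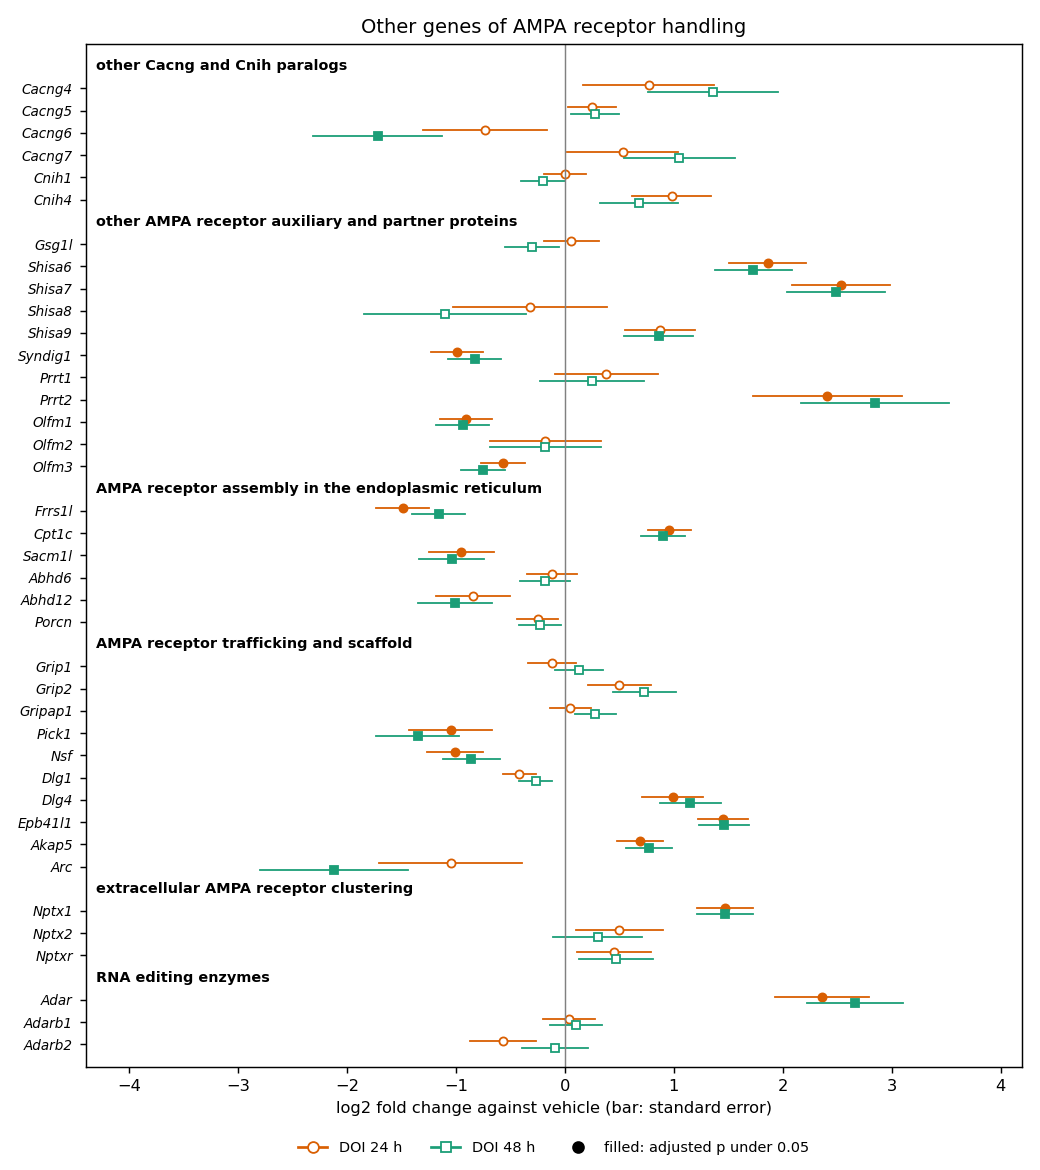
Log2 fold change against vehicle (x axis) of the 39 tested genes of 6 lists (y axis) at 24 h and 48 h after DOI, with bars for the standard error and filled symbols for an adjusted p under 0.05. Filled symbols lie on both sides of 0 in 3 of the lists, from Prrt2 at 2.85 to Arc at -2.12, both at 48 h.

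Some markers of neuron types also differed between the groups. Of the excitatory markers, Camk2a passed (log2 fold change 2.96 at both times, edgeR adjusted p = 0.00308 and 0.00221), while Slc17a7 was at 142 ± 19.8 CPM (SD, n = 4) in vehicle mice and 81.5 ± 21.7 at 24 h without passing. Of 6 interneuron markers 3 passed at 24 h (1 higher) and 2 at 48 h (1 higher), beside 24.2% and 30.1% of all genes, with sums of 1371 to 2741 CPM in vehicle mice and 1706 to 2697 CPM at 24 h and 48 h. Among them Gad1 fell by 0.84 at 24 h (edgeR adjusted p = 0.0135) and Slc32a1 rose by 1.10 (edgeR adjusted p = 0.0443). The 8 striatal markers summed to 156 to 263 CPM in vehicle mice, and to 151 to 229, 173 to 405 and 244 to 937 CPM in the 24 h, 48 h and 7-day mice. Of the 7 tested, Drd1 and Ppp1r1b fell at 24 h (-0.90 and -1.04, edgeR adjusted p = 0.0272 and 0.0484) and Rgs9 rose at 48 h (1.77, edgeR adjusted p = 0.0414), and at 7 days none passed in edgeR, with adjusted p values from 0.0960 for Rgs9 to 0.418 for Ppp1r1b. All but Ppp1r1b had an unadjusted p under 0.05 at 7 days, beside 16.8% of all genes. The part of cell make-up in the changes of the AMPA receptor genes was not tested.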

How the data were processed

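RNA of 16 mice was analysed, and the H3K27ac and input samples of the series were not analysed here. Per the file headers, the authors counted reads per gene with featureCounts 2.0.0 over Ensembl exons of GRCm38, with no strand option, so reads shared by overlapping genes are left out or cannot be assigned. The submitters' processing notes also name Trim Galore 0.6.5, Bowtie2 2.4.1 and mm10. Which aligner was used for the RNA reads is not stated in the sources used here. The deposited raw counts of the 2 libraries of each mouse were summed. Genes were kept by filterByExpr, scaled by TMM and tested with edgeR 4.0.16 (glmQLFit and glmQLFTest; R 4.3.3) in 1 fit of all 4 groups. P-values were adjusted by Benjamini-Hochberg over all 17941 genes and a threshold of 0.05. The scripts were tested on simulated data. Alternatives used DESeq2 1.42.0, limma 3.58.1, other scalings and filters, single libraries and other sets of mice. Totals limit precision, and reads carried no molecular identifiers.

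The 9 genes and the gene lists were chosen with earlier results of these data known. Of each other list, up to 2 genes called at 24 h or 48 h per direction were named, by size of change, plus every Cacng and Cnih gene. Likeness was ranked among genes whose log2 CPM averaged 5 or more, as computed here from the deposited counts with a prior count of 2. The summed excitatory marker list is not reported here. Promoter sequences came from RefSeq.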

Additional observations from a re-analysis of the deposited data

Results flagged for a closer look

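Gria1 in vehicle mouse 1 stood apart from the rest of its group, at 297 CPM against 235 CPM in the nearest vehicle mouse. The gap took up 0.849 of the range of the 4 mice, above the 95% limit of Dixon's test for 4 values. The 9 genes in 4 groups gave 36 such sets, of which chance alone marks about 1 in 20, or 1.8, and 1 was found. No comparison between DOI times passed for any of the 9 genes, in 27 tests.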

How the results depend on the processing

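Gria2 and Cacng8 kept their calls at 24 h and 48 h under 12 of the 13 settings other than leaving out 1 mouse, and without each single mouse. The exception was the log2 share of CT010467.1 as a covariate, a share that was low in vehicle mice, high at 24 h and 48 h and mixed at 7 days. With it 0 of the 9 genes passed at 24 h, 48 h or over all groups, 0 of them at an unadjusted p under 0.05 at 24 h or 48 h, and 0 of the 39 other genes tested passed at either time. Against 2 calls of 9 at 24 h, limma voom with quality weights gave 4 and a fit of only the groups compared gave 4, while their shares over all genes rose from 24.2% to 40.3% and 36.7%. Against 2 calls at 48 h, total-count scaling gave 4, DESeq2 4, limma voom 6 and only the groups compared 5, with 29.5%, 35.3%, 43.4% and 41.5% of all genes called against 30.1%. Over all groups limma voom gave 5 calls against 2. At 7 days, no filter and DESeq2 each gave 1 call of the 9 and 5 of the 39 against 0, beside 2.62% and 4.44% of all genes. The causes were not tested. Leaving out 1 mouse gave 0 to 1 calls at 7 days and 1 to 2 over all groups, and of the 39 other genes 10 to 15 at 24 h and 0 to 8 at 7 days, with 7 without 7-day mouse 1 and 8 without 7-day mouse 3. Total-count scaling moved the median of all genes to 0.14 at 24 h and 0.12 at 48 h.

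With the covariate the sign turned at 24 h for Gria1 (-0.41), Gria3 (-0.21), Gria4 (0.10), Cacng2 (0.18), Cacng3 (0.48), Cnih2 (0.56), Cacng6 (0.40), Shisa7 (-0.11), Olfm1 (0.06), Sacm1l (0.32), Dlg4 (-0.24), Arc (0.48) and Pick1 (0.90). At 48 h it turned for Gria1 (-0.26), Gria3 (-0.23), Gria4 (0.06), Cacng2 (0.49), Cacng3 (0.21), Cnih2 (0.53), Shisa7 (-0.24), Olfm1 (0.08), Sacm1l (0.29), Dlg4 (-0.10) and Pick1 (0.69), and at 7 days for Cnih2 (0.17). The covariate nearly follows the group at 24 h and 48 h, so its fit cannot separate the drug from the share. The signs it gave at those times were not read as directions of change. Values near 0 also turned in other settings. For Gria4 at 24 h this was under total-count scaling (0.08), library 1 (0.01), library 2 (0.00) and only the groups compared (0.00), and at 48 h under total-count scaling (0.03). For Cacng2 at 48 h it was under total-count scaling (0.04), library 2 (0.06) and without the 3 mice of another header number (0.02). Leaving out 1 mouse gave ranges across 0 for Gria1 (-0.10 to 0.23) and Gria4 (-0.17 to 0.07) at 24 h, Cacng2 at 48 h (-0.30 to 0.09), Cnih2 at 7 days (-0.55 to 0.06) and Arc at 24 h (-1.52 to 0.42).

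The mouse numbers mark no shared animal, and deviations from the group mean of mice with 1 number did not go together (mean r -0.04 over 24 pairs, -0.28 to 0.24). A replicate block by mouse number left 2, 2 and 0 calls of the 9 at 24 h, 48 h and 7 days and 2 over all groups, and gave 15 and 16 calls of the 39 at 24 h and 48 h, beside 20.4% and 26.0% of all genes. Thinned counts and leaving out mouse 1 of the 24 h and 48 h groups together were chosen after seeing the data, as were all settings for the 39 genes. Depth limits Cacng8 and Prrt2, at 8 to 11 and 2 to 10 counts per vehicle mouse.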
